A study of Homo sapiens with 23 samples.

Results

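Keratin genes that mark the basal and the luminal cells of the mammary gland were followed across 13 lines of MCF10A cells. The 10 genes were taken by name from the deposited table of 58358 genes: 6 basal keratins (KRT5, KRT6A, KRT6B, KRT14, KRT15 and KRT17) and 4 luminal keratins (KRT7, KRT8, KRT18 and KRT19). Each name matched a row. Values are log2(TPM+1), where TPM is the transcript level per transcript length, scaled to the same total in each library. A gene was tested if it reached 1 on this scale in 3 or more lines, which kept 9 of the 10 keratins and 14884 genes in all. KRT19 was left out, since it was listed at 0 in every line. Whether this 0 is a failed estimate is not known, and it adds nothing to the sums of luminal keratins given here.

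Keratins build the intermediate filaments of epithelial cells. A filament forms only when an acidic type I keratin pairs with a basic type II keratin, so the genes are usually switched on in pairs. In the mammary gland KRT5 (type II) with KRT14 (type I) marks the outer basal or myoepithelial layer, whereas KRT8 (type II) with KRT18 (type I) marks the inner luminal cells, which also carry KRT7 and KRT19. KRT6A, KRT6B and KRT17 are known from stressed, wounded and fast-growing epithelia, and KRT15 from quiescent basal cells.

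MCF10A is a non-transformed human mammary epithelial line, and the study asked how different p53 missense mutants alter such cells. Each of 10 lines was transduced with a lentiviral vector (pLenti4/V5-DEST) for a V5-tagged mutant on top of the cells' own p53: 4 mutants of residues that touch DNA (R273H, R273C, R248W and R248Q, called contact) and 6 that disturb the fold (Y163C, R175H, H179R, Y220C, Y234C and G245S, called structural). The 3 control lines were the parental cells (WT), cells with p53 knocked down by shRNA (WTKD) and cells given V5-tagged wild-type p53 from another vector, pLX304 (WTOE). By western blot the paper found raised mutant p53 in every mutant line except Y234C. Cells were untreated, each line gave 1 RNA library, and in 5 lines V5 ChIP-seq peaks were called.

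With 1 library per line, a test between groups treats the lines of a group as its samples. Its p-value sets the difference between groups against the spread between lines, which cannot be told apart from that between libraries. Differences between single lines have no replicate check. The libraries differed in make-up: between 12122 (R273H) and 15975 (Y163C) genes were above 0, and the 50 most abundant genes held 27.1 to 46.8% of TPM, most in Y234C. CDKN1A, a target gene that wild-type p53 switches on, was lower in the library labelled WTOE (6.46) than in the library labelled WT (7.78). The RNA of the library labelled WTOE thus went against its label for this gene. Of 13 basal mammary markers 12 passed the filter, and of 12 luminal markers 7 did, with KRT19, PGR, ELF5 and KIT at 0 in every line. Fibroblast markers summed to 2.69 to 61.6 TPM, endothelial markers to at most 6.13 TPM and blood cell markers to at most 12.5 TPM.

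The keratins are close relatives, which bears on how well reads can be assigned to them. The stretch that ends the central rod, where type I and type II chains share a conserved helix end, is shown for 5 members as 72 coding bases read 5′ to 3′ from GRCh38. It lies in exon 7 of KRT5 and KRT6B and in exon 6 of KRT14, KRT17 and KRT18. Capitals mark bases that differ from KRT5 in KRT6B and from KRT14 in KRT17 and KRT18.
KRT5, type II, chr12:52516639-52516710, minus strand: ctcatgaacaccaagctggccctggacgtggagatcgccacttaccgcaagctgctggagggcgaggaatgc
KRT6B, type II, chr12:52447780-52447851, minus strand: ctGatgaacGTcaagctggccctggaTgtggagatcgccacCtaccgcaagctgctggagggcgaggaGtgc
KRT14, type I, chr17:41583237-41583308, minus strand: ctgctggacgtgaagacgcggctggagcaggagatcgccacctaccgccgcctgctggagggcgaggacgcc
KRT17, type I, chr17:41620661-41620732, minus strand: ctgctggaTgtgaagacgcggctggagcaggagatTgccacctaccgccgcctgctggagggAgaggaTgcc
KRT18, type I, chr12:52952266-52952337, plus strand: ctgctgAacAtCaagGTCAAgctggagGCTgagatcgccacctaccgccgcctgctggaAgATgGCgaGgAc

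Within this stretch KRT6B differed from KRT5 at 6 bases, and KRT17 and KRT18 differed from KRT14 at 4 and 18 bases. Over the whole coding sequence KRT6A and KRT6B were 97.5% identical, KRT5 and KRT6A 82.8%, and KRT14 and KRT17 86.0%. Windows of 75 bases, the length of each read, were then searched in the genome: 491 of 2234 in the KRT6A mRNA, 24.4% in KRT6B and 22.5% in KRT8 had an exact copy outside the gene, against 10.2% in KRT14, 7.2% in KRT18, 4.3% in KRT17, 2.8% in KRT5 and 0% in KRT7, KRT15 and KRT19. Windows across an exon border could not match a gene with introns, so these shares are lower limits for single windows. The reads were paired, and pairs of windows were not searched. The copies of KRT6A and KRT6B lay in each other, in KRT6C and in KRT5. Those of KRT8 and KRT18 lay mostly in their many pseudogenes, of which the table lists 50 and 67. Keratin pseudogenes held 6.25 to 79.5 TPM per line. The part of shared sequence in the levels given here was not tested.

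KRT7, KRT5 and KRT6A made up most of the keratin RNA in every line. They held 95.5 to 99.2% of the TPM of the 5 type II members, and were abundant genes, with a mean level above that of 99.8%, 99.6% and 99.5% of the genes tested. KRT18 and KRT8 were at intermediate levels. KRT14, KRT17 and KRT15 varied the most from line to line: the SD of KRT14 over the 13 lines, 2.73 on the log2 scale, was larger than that of 99.8% of genes tested, that of KRT17 (1.73) larger than that of 94.4%, and that of KRT15 (1.66) larger than that of 92.8%. For KRT5 (0.49) the share was 4.7%, so KRT5 and its partner KRT14 differed widely in spread. These shares rank genes of all levels together. The mean level of KRT14 was above that of 51.7% of genes tested, and that of KRT15 above 32.8%. The part of level in these spreads was not tested. In bulk RNA such as this, fewer cells that express a gene and less of its RNA per cell cannot be told apart.

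**Figure D1:**
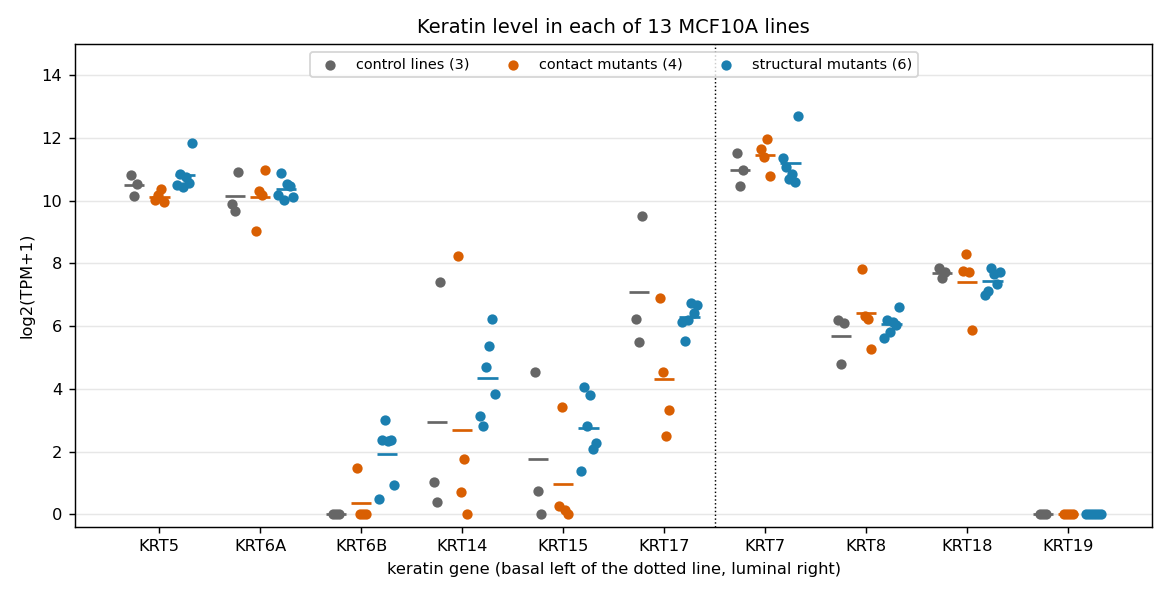
Level of each keratin as log2(TPM+1), with 1 point per line and a bar at the mean of the 3 control lines (grey), 4 contact mutants (orange) and 6 structural mutants (blue). KRT5, KRT6A and KRT7 sit between 9.02 and 12.69 in every line, KRT14 spreads from 0 to 8.23, and KRT19 is at 0 throughout.

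KRT5 (ENSG00000186081, chr12:52514575-52520530, minus strand) encodes the type II keratin of basal cells. Its log2(TPM+1) was 10.83 in the library labelled WT, 10.15 in WTKD and 10.54 in the library labelled WTOE. Among contact mutants it was 10.01 in R248Q, 10.19 in R248W, 10.36 in R273C and 9.97 in R273H, and among structural mutants it had a lowest value of 10.43 (R175H), a median of 10.65 and a highest value of 11.85 (Y234C). All contact mutants thus lay below all structural mutants, with a gap of 0.07 between the nearest lines. Control lines lay on both sides of this gap.

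KRT6A (ENSG00000205420, chr12:52487176-52493257, minus strand), the main type II keratin of wounded epidermis, was likewise high everywhere. It was 9.89 in the library labelled WT, 9.68 in WTKD and 10.91 in the library labelled WTOE, and 9.02 in R248Q, 10.30 in R248W, 10.19 in R273C and 10.98 in R273H. The structural mutants ran from 10.02 (R175H) through a median of 10.33 to 10.87 (H179R). R248Q was the lowest line and R273H the highest, so the contact mutants enclosed all other lines. Its near-copy KRT6B (ENSG00000185479, chr12:52446651-52452146, minus strand) was low: it was listed at 0 in 6 lines, among them all 3 control lines and R248W, R273C and R273H. It reached 1.49 in R248Q and 0.49 (G245S) to 3.01 (R175H) in the structural mutants, where the median was 2.36. At most 7.05 TPM were assigned to KRT6B, while KRT6A held 518 to 2019 TPM.

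KRT14 (ENSG00000186847, chr17:41582279-41586895, minus strand) is the type I partner of KRT5. It was 1.04 in the library labelled WT, 0.38 in WTKD and 7.41 in the library labelled WTOE. Among contact mutants it was 8.23 in R248Q, 0.71 in R248W, 1.76 in R273C and 0 in R273H, so the highest and the lowest of all lines were both contact mutants. The structural mutants lay between, from 2.81 (H179R) to 6.23 (Y220C) with a median of 4.27. On the linear scale these values stand for 0 to 299 TPM. In the 10 lines with at least 1 TPM of KRT14, KRT5 exceeded its partner by 3.45 times in R248Q to 1715 times in the library labelled WT.

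KRT15 (ENSG00000171346, chr17:41513745-41522529, minus strand) had the lowest mean of the 3 basal type I keratins, although it was above KRT14 in the library labelled WT, WTKD, R248W and H179R. It was 4.55 in the library labelled WT, its highest value, but 0.73 in WTKD and 0 in the library labelled WTOE. It was 3.41 in R248W, 0.26 in R248Q, 0.13 in R273C and 0 in R273H, against 1.38 (G245S) to 4.07 (H179R) in the structural mutants, with a median of 2.54. R248W was thus the only contact mutant within the range of the structural mutants.

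KRT17 (ENSG00000128422, chr17:41619442-41624842, minus strand), a type I keratin of stressed and basal epithelia, was 6.22 in the library labelled WT, 5.51 in WTKD and 9.50 in the library labelled WTOE. It was 6.89 in R248Q, 4.54 in R248W, 2.48 in R273C and 3.33 in R273H. The structural mutants were close together, from 5.52 (H179R) to 6.73 (Y163C) with a median of 6.32. Of the contact mutants 3 lay below this range and R248Q above it, and the library labelled WTOE stood higher than every mutant line, at 722 TPM against 4.59 to 117 TPM.

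KRT7 (ENSG00000135480, chr12:52232520-52252186, plus strand), a type II keratin of glandular ducts, was the most abundant member in every line except R273H, where KRT6A was higher. It was 11.53 in the library labelled WT, 10.47 in WTKD and 10.97 in the library labelled WTOE, and 11.66 in R248Q, 11.40 in R248W, 11.97 in R273C and 10.78 in R273H. The structural mutants ran from 10.61 (Y220C) through a median of 10.96 to 12.69 (Y234C). In linear terms KRT7 held between 1414 TPM (WTKD) and 6613 TPM (Y234C), and it exceeded KRT5 in every line, by 1.04 (Y220C) to 3.14 times (R248Q). The gene overlaps KRT86 and the antisense gene KRT7-AS, and how strand was counted is not given in the sources used here.

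KRT8 (ENSG00000170421, chr12:52897187-52949954, minus strand) is the type II keratin of simple and luminal epithelia. It was 6.19 in the library labelled WT, 4.78 in WTKD and 6.11 in the library labelled WTOE, and 7.83 in R248Q, 6.32 in R248W, 6.23 in R273C and 5.27 in R273H. The structural mutants fell between 5.63 (G245S) and 6.61 (Y234C), with a median of 6.08. R248Q was highest and WTKD lowest, with the other 11 lines between 5.27 and 6.61.

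KRT18 (ENSG00000111057, chr12:52948871-52952906, plus strand), the type I partner of KRT8, lies next to it, and its start overlaps the KRT8 gene on the opposite strand. It was 7.85 in the library labelled WT, 7.53 in WTKD and 7.73 in the library labelled WTOE, and 7.76 in R248Q, 8.30 in R248W, 7.73 in R273C and 5.89 in R273H. The structural mutants ran from 6.99 (G245S) through a median of 7.50 to 7.85 (R175H). R273H stood alone at the low end, with G245S (6.99) the next line. KRT18 exceeded KRT8 in 12 lines, by up to 6.99 times in WTKD, and was slightly below it in R248Q, where the ratio was 0.956. KRT19 (ENSG00000171345, chr17:41523617-41528308, minus strand), the smallest type I keratin, was listed at 0 in all 13 lines.

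The balance between basal and luminal keratins differed between lines. Summed TPM of the basal members exceeded that of the luminal members in 7 of 13 lines, with a log2 ratio of −0.90 in R248Q to 0.91 in the library labelled WTOE. In the contact mutants the ratio was −0.90 in R248Q, −0.79 in R273C, −0.33 in R248W and 0.71 in R273H, and in the structural mutants −0.49 (Y234C) to 0.79 (Y220C). The groups overlapped. Without KRT6A and KRT6B the basal members exceeded the luminal ones in 1 line, the library labelled WTOE, and contact mutants lay at −1.70 to −0.87 and structural mutants at −0.88 to −0.10. KRT5 took 18.3 to 21.0% of the RNA of the 10 keratins in contact mutants and 26.4 to 31.6% in structural mutants, and KRT7 36.0 to 59.1% and 31.9 to 55.8%. The 10 genes together held 0.362% (WTKD) to 1.19% (Y234C) of all TPM.

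**Figure D2:**
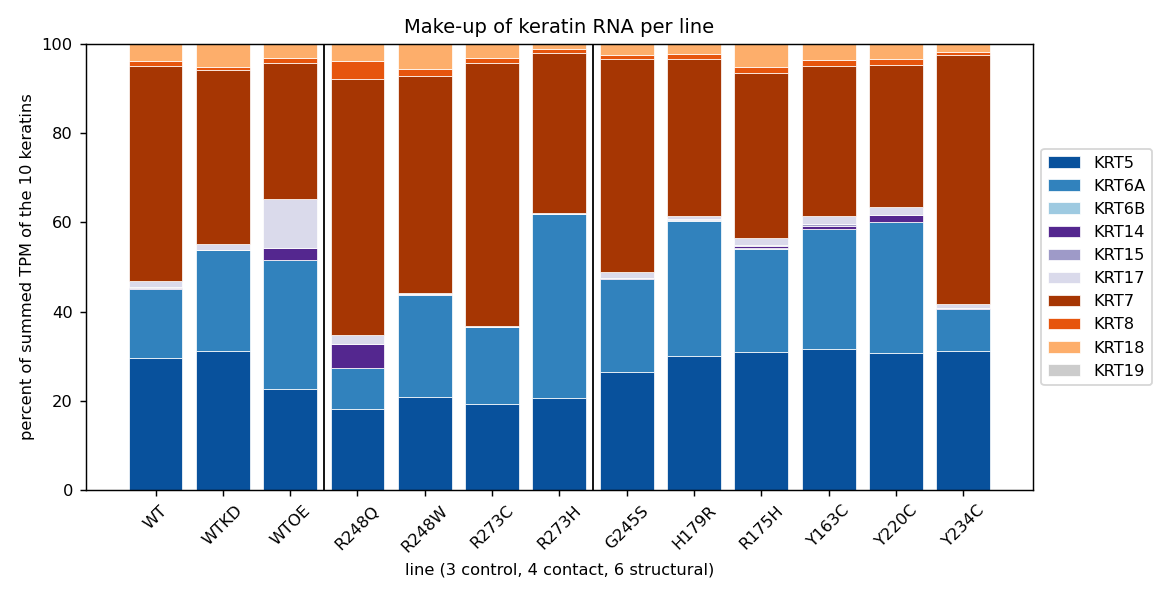
Share of each keratin in the summed TPM of the 10 keratins, in percent, as 1 stacked bar per line (3 control lines, 4 contact mutants and 6 structural mutants, separated by vertical lines). KRT5, KRT6A and KRT7 fill most of each bar, KRT17 takes its largest share in the library labelled WTOE, and KRT14 reaches 5.30% in R248Q.

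Type II keratin RNA was in large excess over type I keratin RNA in every line, although the proteins pair in filaments. The 5 type II members exceeded the 5 type I members by 4.98 times in the library labelled WTOE and by 71.5 times in R273H, with a median of 15.1. Type I members held 67.4 TPM in R273H, 204 to 359 TPM in the structural mutants and 1101 TPM in the library labelled WTOE. KRT18 supplied 67.3% of the type I RNA in the median line and up to 96.8% (R273C), whereas KRT14 and KRT17 together supplied 80.9% in the library labelled WTOE and 65.8% in R248Q. The excess was not made up by other type I keratins: over the 26 type II and 29 type I keratin genes of the table the ratio was 8.04 to 187. These wider sums hold KRT81, a hair keratin of type II, at 2692 to 20417 TPM, the highest of any keratin, of whose 75-base windows 25.8% have a copy elsewhere, mostly in KRT86.

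**Figure D3:**
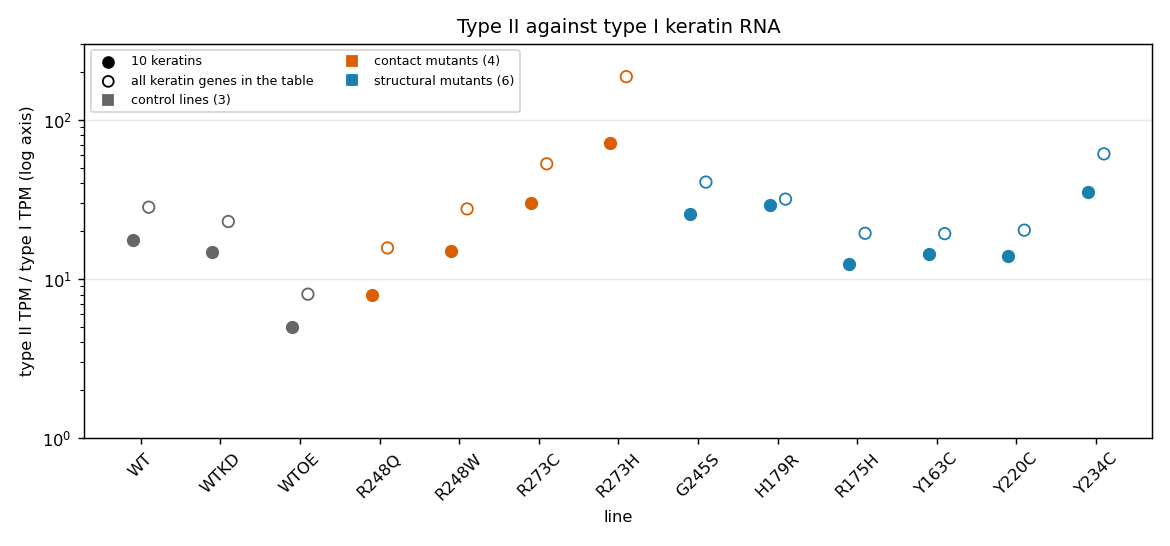
Ratio of summed type II to summed type I keratin TPM in each line on a log axis, for the 10 keratins (filled) and for all keratin genes of the table (open), coloured by group. The filled points run from 4.98 in the library labelled WTOE to 71.5 in R273H, and every point lies above 1.

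The pairs differed in how closely their members followed each other. Over the 13 lines KRT5 and KRT14 had a Pearson r of 0.114 and a Spearman's rho of 0.28. This r was −0.047 without Y234C and R273H, the lines farthest from the median of KRT5. It was 0.437 without R248Q and the library labelled WTOE, the lines farthest from the median of KRT14. KRT8 and KRT18 had an r of 0.441 and a rho of 0.527. Their r was 0.775 without R248Q and WTKD, farthest for KRT8, and 0.196 without R273H and G245S, farthest for KRT18. Which of these pairs had the higher r thus depended on the lines left out. With all 13 lines kept, the type I keratins KRT14 and KRT17 followed each other more closely, with an r of 0.732 and a rho of 0.852. Their r was 0.633 without R248Q and the library labelled WTOE. In the genome search 0 windows of 75 bases of the KRT14 mRNA had a copy in KRT17. Windows across exon borders could not be matched there, so shared reads were not tested. KRT7 and KRT8, both type II, had an r of 0.585 and a rho of 0.824 (r 0.705 without Y234C and R273C). KRT5 and KRT7 had an r of 0.557 that became −0.141 without Y234C and R273H, so it rested on these lines. These are descriptions over 13 libraries, which share the TPM scale, chosen from 36 pairs.

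**Figure D4:**
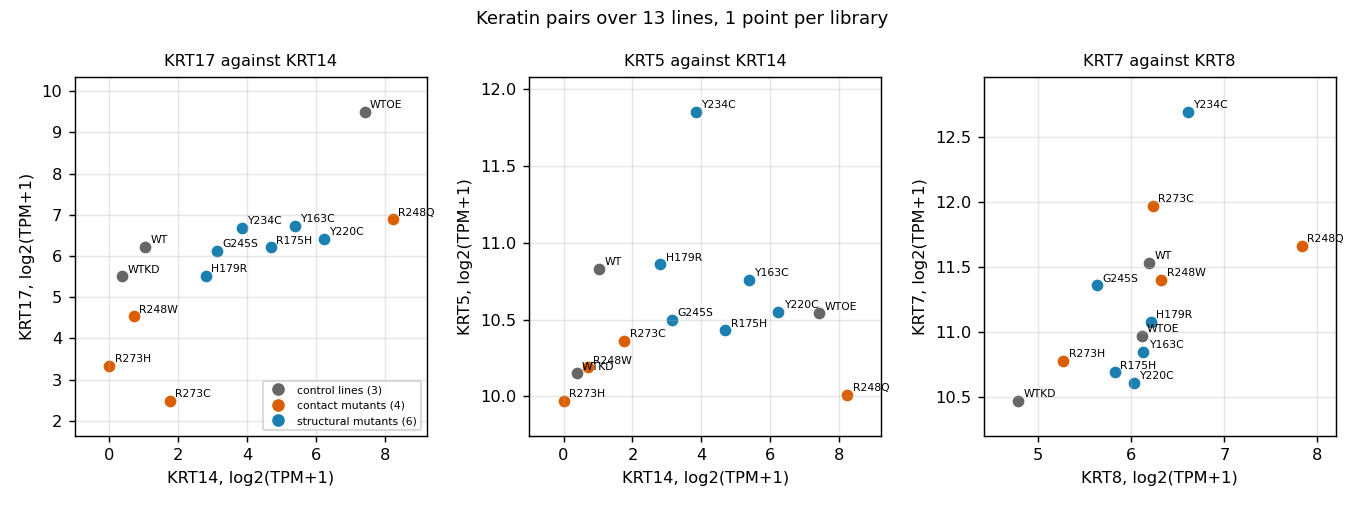
Log2(TPM+1) of KRT17 against KRT14, KRT5 against KRT14 and KRT7 against KRT8, with 1 labelled point per line (grey control lines, orange contact mutants, blue structural mutants). KRT17 climbs with KRT14 (r 0.732), while KRT5 stays within 9.97 and 11.85 over the whole range of KRT14 (r 0.114).

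The genes outside the 10 with the pattern most like each member, by Pearson r over the 13 lines among genes tested, were as follows. They were SMIM37 (r 0.919) and DNAJC19 (0.908) for KRT5, ZNHIT1 (0.798) and AL050341.2 (0.785) for KRT6A, and SPART-AS1 (0.934) and FGFR4 (0.88) for KRT6B. HIST1H2BE, a histone gene, was nearest to KRT14 (0.865) and second for KRT17 (0.83), with BAIAP2L2 (0.865) beside KRT14 and SAMD10 (0.892) first for KRT17. For KRT15 they were ZNF799 (0.918) and LAPTM5 (0.877). Among luminal members they were PDLIM4 and EIF4G1 (both 0.905) for KRT7, MED15 (0.869) and PDIA4 (0.848) for KRT8, and HOXA2 (0.921) for KRT18. No keratin outside the 10 was among them, and the other members had been left out beforehand. The highest of 14883 such values is large by construction.

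Contact and structural mutants were compared for the question of whether the kind of p53 mutation went with keratin expression. All 6 basal keratins had a lower mean in the 4 contact mutants than in the 6 structural mutants. Of the 3 luminal keratins tested KRT7 and KRT8 had a higher mean and KRT18 a slightly lower one. The log2 difference, contact minus structural, was −1.97 ± 0.71 (SE) for KRT17, −1.79 ± 0.74 for KRT15, −1.68 ± 1.31 for KRT14, −1.55 ± 0.58 for KRT6B, −0.69 ± 0.44 for KRT5 and −0.24 ± 0.47 for KRT6A. It was 0.24 ± 0.51 for KRT7, 0.34 ± 0.51 for KRT8 and −0.03 ± 0.51 for KRT18. Without R273H and Y234C these became 0.76, 0.83 and 0.54, and whether basal and luminal keratins differed from each other was not tested. None of the 9 keratins passed limma's moderated test with Benjamini-Hochberg adjustment over 14884 genes: adjusted p was 0.96 for KRT6B, KRT15 and KRT17, 0.97 for KRT5 and above this for the others, and 0% of all genes were called (734 had an unadjusted p under 0.05). In limma KRT17 had an unadjusted p = 0.0152, KRT6B 0.0192 and KRT15 0.031 (adjusted p = 0.96 for each). These 3 of the 9 keratins lay under 0.05 and lower in contact mutants, as did 2.07% of all genes tested. The count was 0 without R273C, 1 without R273H, and 2 without H179R, Y163C or R248W. The median difference of the basal members was −1.61 and that of the luminal members 0.24, beside 0.01 over all genes tested.

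The lines of each kind did not move as a block. KRT5 was the 1 keratin of 9 for which every contact mutant lay below every structural mutant, as was so for 0.262% of genes tested. For KRT14 and KRT17 the contact mutant R248Q lay above every structural mutant, so that without it the difference of KRT14 became −3.53 and that of KRT17 −2.83. Without R273H or R248W that of KRT14 was −0.78 or −1.02. R273H lay below every structural mutant for KRT5, KRT6B, KRT14, KRT15, KRT17, KRT8 and KRT18, though not for KRT7. It had the highest KRT6A of all lines (10.98). The other basal mammary markers also had their lowest sum in R273H. The 10 of them that are not keratins studied here summed to 209 TPM against 645 to 2635 TPM in the other lines. Of the 9 found above 0, 6 had their lowest value in R273H, with TP63 tied at 0 with R248W and R273C. The 9 luminal ones summed to 16 TPM against 108 to 451 TPM. Of the 6 found above 0, 5 had their lowest value in R273H, with ESR1 tied, since it was at 0 in 12 lines. The part of this library's make-up in these values was not tested. The 95% interval of the KRT7 difference ran from −0.85 to 1.34 and that of KRT18 from −1.13 to 1.08, so differences of up to about 1 on the log2 scale could not be told from 0 at this number of lines.

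**Figure D5:**
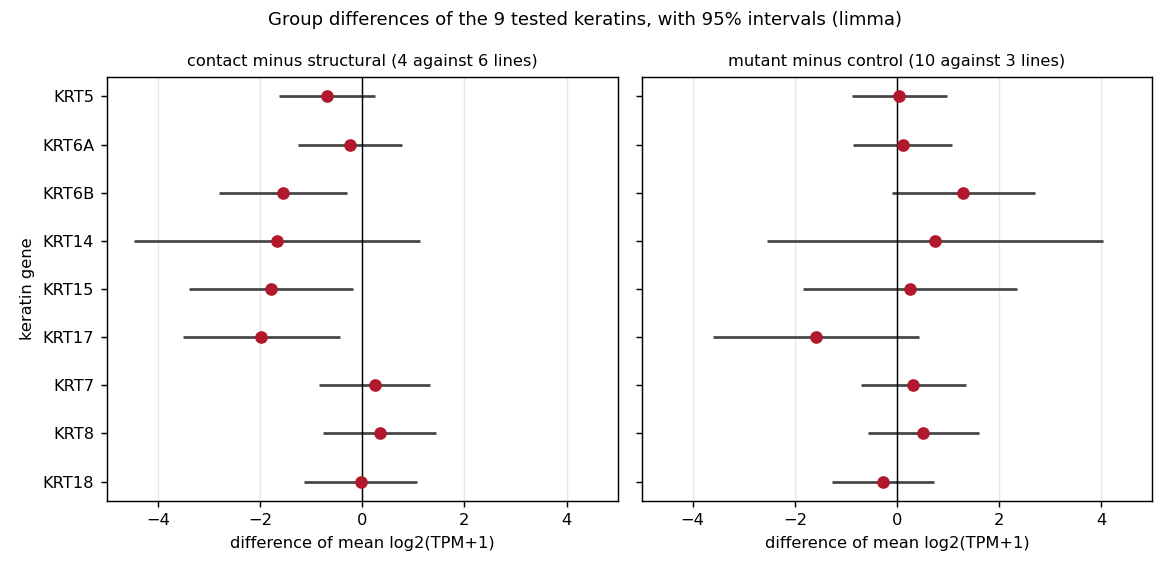
Difference of mean log2(TPM+1) for the 9 tested keratins with 95% intervals from limma, contact minus structural mutants on the left (4 against 6 lines) and mutant minus control lines on the right (10 against 3 lines). On the left the intervals of KRT6B, KRT15 and KRT17 lie below 0 before adjustment, and on the right all 9 intervals cross 0.

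Mutant lines were then compared with the 3 control lines, which differ from each other in p53 and are not replicates of 1 genotype. The mutant lines also share a vector, pLenti4/V5-DEST, that is not given for any control line. An effect of the vector cannot be told apart from that of the mutants. The keratins did not separate the groups. KRT6B was above 0 in 7 of 10 mutants and listed at 0 in each control line, and KRT17 was lower in the mutants by a mean difference of −1.58 ± 0.95. The remaining differences ran from −0.27 ± 0.47 (KRT18) to 0.74 ± 1.56 (KRT14). By limma none of the 9 passed at an adjusted p under 0.05 (0.932 for KRT6B, KRT8 and KRT17, the lowest) or an unadjusted p under 0.05, against 0.0202% and 4.83% of all genes. No keratin had every mutant line on the same side of every control line, as 1.00% of genes did. Much of the KRT17 difference came from the library labelled WTOE: without it the difference was −0.37.

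Between control lines, with 1 library each and no test, differences of at least 1 on the log2 scale are given beside the share of all genes with such a difference. The library labelled WTOE exceeded the library labelled WT by 6.36 for KRT14, 3.28 for KRT17 and 1.01 for KRT6A, and KRT15 was listed at 0 where the library labelled WT had 4.55, so that 4 of 9 keratins differed where 38.4% of genes did. In WTKD, 3 of 9 keratins lay at least 1 below the library labelled WT, KRT15 by −3.82, KRT8 by −1.41 and KRT7 by −1.06, where 40.4% of genes differed in either direction. KRT5 was −0.68, KRT6A −0.21, KRT14 −0.67, KRT17 −0.70 and KRT18 −0.32 from it, and KRT6B was listed at 0 in both. Both contrasts share the library labelled WT, and CDKN1A set it against the library labelled WTOE, so no direction for p53 is drawn from either.

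Lines with different mutations of the same residue were set side by side. R248Q exceeded R248W by 7.52 for KRT14, 2.34 for KRT17, 1.5 for KRT8 and 1.49 for KRT6B, which was listed at 0 in R248W, and lay −3.15 from it for KRT15 and −1.28 for KRT6A, which makes 6 of 9 keratins where 39.8% of genes differed by at least 1. KRT14 was thus the member that set the R248 lines apart most, with 299 TPM in R248Q and 0.632 TPM in R248W. R273C exceeded R273H by 1.84 for KRT18, 1.18 for KRT7 and 1.76 for KRT14, which was listed at 0 in R273H, 3 of 9 keratins where 54.3% of genes differed, a smaller share than among all genes, and the median gene was itself 0.78 higher in R273C. KRT17 (−0.85) and KRT6A (−0.79) were on the other side.

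Each mutant was also set against the mean of the other 9 mutant lines, with a difference of at least 2 on the log2 scale counted. These contrasts share their lines. KRT14 stood out upward in R248Q (5.06) and Y220C (2.84), and downward in R248W (−3.30), R273C (−2.13) and R273H (−4.09). KRT17 stood out downward in R273C (−3.35) and R273H (−2.40), and KRT15 downward in the same lines (−2.10 and −2.25) and upward in H179R (2.27). KRT5, KRT6A, KRT6B, KRT7, KRT8 and KRT18 passed this size in no line. R273C and R273H therefore each had 3 of 9 keratins past it, all of them type I, where 4.97% and 17.8% of all genes were. In R273H the median gene itself lay at −0.71, so relative to it KRT14 alone would differ by 2 or more. R248Q, R248W, H179R and Y220C had 1 each, beside 8.08%, 5.93%, 6.94% and 4.42% of genes. G245S, R175H, Y163C and Y234C had none, beside 6.13%, 6.61%, 3.97% and 18.3%.

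Y234C had the highest KRT5 and KRT7 of all lines, at 3697 and 6613 TPM, and its other keratins lay within the range of the remaining lines. The 10 keratins held 1.19% of its TPM against 0.362 to 0.678% in the other lines. In this library the 50 most abundant genes held 46.8% of TPM, 12409 genes were above 0, and the median gene lay 0.87 below the mean of the other 9 mutants. The part of this make-up in the keratin values was not tested. Neither was that of its mutant p53 protein, which the paper did not find raised in Y234C.

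Other genes of the keratin system were taken from fixed lists. Of 44 other keratins 8 passed the filter and 28 were at 0 in every line. All 8 had a higher mean in contact than in structural mutants, with a median difference of 0.48 beside 0.01 over all genes tested. All 8 also had a higher mean in mutant than in control lines, with a median difference of 0.33 beside −0.08. None was called in either comparison. The 3 most abundant were KRT81 (mean 12.28), KRT10 (5.53), the type I keratin of upper epidermis, and KRT80 (4.02). KRT16, the usual partner of KRT6A, was at 0 in 8 lines and highest in Y220C (3.70) and R248Q (3.46). Those 2 lines also had the highest KRT14 of the mutants, and 84 windows of 75 bases of the KRT14 mRNA had a copy in the KRT16 gene. Of 15 filament partners 12 were tested and none was called in either comparison, with a median contact minus structural difference of 0.09. The 3 most abundant were VIM (mean 9.39), the mesenchymal filament protein, SFN (8.62), the 14-3-3 protein that binds KRT17, and DSP (7.62), which anchors keratin filaments in desmosomes.

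Of 16 regulators of keratin genes 12 were tested and none was called (median difference 0.20), with KLF5 (mean 7.88), TFAP2A (6.68) and STAT3 (6.65) the most abundant. The 1 regulator of 12 that was lower in contact mutants at an unadjusted p under 0.05, beside 2.07% of all genes, was TP63, the p53 relative that maintains basal epithelial cells, named here after its values were seen. TP63 was 3.25 in R248Q and 0 in R248W, R273C and R273H, against 1.83 (G245S) to 4.87 (R175H) in structural mutants and 4.80, 5.41 and 5.27 in the libraries labelled WT, WTKD and WTOE. The difference between contact and structural mutants was −3.11 ± 0.77 (limma, unadjusted p = 0.00126, adjusted p = 0.764). Over the 13 lines TP63 had an r of 0.750 with KRT17 (rho 0.497, r 0.689 without R273C and the library labelled WTOE), 0.465 with KRT14 (rho 0.282), 0.306 with KRT5 (rho 0.309) and 0.287 with KRT15 (rho 0.194, r 0.056 without R273H and the library labelled WT), given as a description. The basal mammary markers, KRT5, KRT14, KRT17 and TP63 among them, had a median contact minus structural difference of −0.84 and the luminal markers of −0.08, with none called.

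V5-tagged p53 peaks were looked for at the keratin genes, with 1 list per line. No list had a peak in the promoter of any of the 10 keratins, from 2500 bp upstream to 100 bp downstream of the start site. Among 20007 protein-coding genes a promoter peak was found for 2.87% in the WTOE list, 1.32% in R273H, 0.585% in Y234C, 0.220% in Y220C and 0.0400% in R273C, so with 10 genes an absence was the common outcome. Within 10 kb of a member gene there was 1 peak, in the WTOE list at chr12:52892385-52892800, 4387 bp beyond the 3′ end of KRT8. Its fold enrichment over input was 3.08 and its −log10 q 1.73, near the limit of the list. The next nearest in that list were 16627 bp from KRT7, 19110 bp from KRT5 and 27793 bp from KRT17. KRT14 and KRT17, the members highest in RNA of the library labelled WTOE relative to the library labelled WT, had no peak within 10 kb in any list.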

How the data were processed

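RNA from 13 MCF10A lines was sequenced by the authors as paired reads of 75 bases from Nugen Ovation amplified cDNA, and counted per gene with STAR (Ensembl annotation of GRCh38). The authors then dropped mitochondrial RNA, normalized the counts to TPM and deposited log2(TPM+1). Depth is unknown, so no counting error is given, and strand use is not given in the sources used here. The paper reports high duplication rates in the RNA libraries. Before its removal, mitochondrial RNA took a large share of reads that varied between libraries. The part of either in the low and zero values given here was not tested. V5 ChIP-seq reads were aligned by the authors with Bowtie2 2.1.0, and the peaks that MACS2 2.1.2.20181017 called against input were deposited with a score, a fold enrichment, and −log10 p and −log10 q values, of which the score was not used.

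Differences were tested with limma 3.58.1 in R 4.3.3 (moderated test, Benjamini-Hochberg adjustment over all 14884 genes, threshold 0.05), tested on simulated data first. Contact and structural mutants were fitted on their 10 lines, mutant and control lines on all 13. Alternatives were other pseudocounts and filters, quantile normalization, a covariate, a variance trend and lines left out. Copies of 75-base windows were searched in GRCh38 with Python 3.11.15. The genes and lists were chosen with earlier results of these data known. Named are the 10 keratins, the 2 genes most like each, and per list any gene called and the 3 with the highest mean level, with TP63 and KRT16 named after their values were seen. Each replicate number only names a line. Some items that these rules would name are not reported here.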

Additional observations from a re-analysis of the deposited data

Results flagged for a closer look

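For each keratin and for the summed shares, the lowest and highest line of the contact mutants and of the structural mutants was compared with the nearest other line by Dixon's criterion. Of 30 such groups 6 had a line that stood apart. Chance flags about 1 in 20 groups of values that are not tied. Among contact mutants KRT6B stood apart in R248Q, at a log2(TPM+1) of 1.49 with the other lines at 0, where any value above 0 would have stood apart. KRT15 stood apart in R248W, at 3.41 with the others at 0 to 0.26. Among structural mutants Y234C stood apart for KRT5, at 11.85 against 10.43 to 10.86, and for KRT7, at 12.69 against 10.61 to 11.36. The 10 keratins also held 1.19% of TPM in Y234C against 0.446 to 0.617% in the other structural mutants. KRT5 took a smaller share of the keratin RNA in G245S, 26.4% against 30.1 to 31.6%.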

How the results depend on the processing

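No keratin passed an adjusted p of 0.05 in limma under any alternative, the lowest being 0.496, and 332 of 349 keratin differences kept their sign. For contact against structural mutants 0 genes were called, but 5 with a pseudocount of 0.1, 1 without the filter, 1 without R273H and Y234C, and 0 to 1 when each line was left out (1 without R175H or R273H). For mutant against control lines 3 genes were called, but 6 with a pseudocount of 0.1, 1 with a pseudocount of 5, 5 without the filter, 5 with the number of genes above 0 as covariate, 8 without R273H and Y234C, and 0 to 11 with each line left out. The count was 0 without H179R, G245S, Y163C, R248W or Y220C, 1 without R248Q or the library labelled WTOE, 6 without Y234C, 7 without R273H, 8 without the library labelled WT and 11 without WTKD.

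The size of low keratins followed the pseudocount: with 0.1 or 5 the contact minus structural difference was −3.61 or −0.60 for KRT6B, −3.50 or −0.76 for KRT15 and −2.82 or −0.69 for KRT14. Changes of sign came mostly from leaving out a line. The contact minus structural difference then ran from −0.53 to 0.13 for KRT6A, from −0.13 to 0.72 for KRT8 and from −0.32 to 0.48 for KRT18, which was 0.54 without R273H and Y234C. The mutant minus control difference ran from −0.14 to 0.20 for KRT5 (−0.049 without R273H and Y234C), from −0.13 to 0.48 for KRT6A, from −0.55 to 2.97 for KRT14 and from −0.62 to 1.65 for KRT15 (−0.018 with a pseudocount of 5). Basal keratins exceeded luminal ones in 7 lines by summed TPM, in 4 by the difference of mean log2 values and in 1 without KRT6A and KRT6B. A filter at 3 dropped KRT6B. No keratin had a V5 peak within 5000 bp of its start site or with a q under 0.01 in its promoter.

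No paired analysis was possible because the labels give no replicate numbers and each line has 1 library. Depth is unknown, so no limit of detection can be given for a gene listed at 0. With 4 contact mutants the intervals of KRT14 span several units of log2.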
